A study of Gallus gallus with 24 samples.

Results

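Albumin (ALB), transthyretin (TTR), alpha-2-HS-glycoprotein (AHSG), apolipoprotein H (APOH), the vitamin D-binding protein (GC), vitronectin (VTN) and leukocyte cell-derived chemotaxin 2 (LECT2) were followed in abdominal fat of growing chickens. They are 7 of the 6428 named genes measured and were read from 13 of 19200 spots. The 7 were chosen by name for their known pattern on these same 24 arrays, a line difference set against shifts of single arrays. Their ratios are therefore given as a description, with no test.

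Each array compared a cockerel of the fat line (FL) with a cockerel of the lean line (LL), broiler chickens selected over generations in opposite directions on abdominal fat weight and raised under a standard protocol. Birds were 1, 3, 5, 7, 9 or 11 wk old, with 4 arrays per age. FL carried the 647 dye on 2 of these and LL on the other 2. Both birds of a pair had the same age, and by the design text each replicate is a biological one. The label is abdominal adipose tissue, a mixture of cells.

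Plasma proteins such as these are made mainly by hepatocytes and secreted into the blood. Albumin is the main carrier protein of plasma, and its transcript is among the most abundant in liver. Fat is not known as a main source of these proteins. In bulk tissue, more cells of a type and more RNA per cell cannot be told apart, and a ratio does not show which of the 2 birds departs from the usual level.

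The values are the deposited log ratios of the 2 channels. Their base is not stated and was taken as 2, so each fold value rests on that base. Spots received gene names after row and column of the spot ID were exchanged within each block. That exchange was not checked here against a clone list. Spots of one gene were averaged, and the dye effect that a linear model in limma estimated for that gene was taken off each array. The result is called the dye-corrected ratio. The dye terms of the 7 genes ran from -0.23 to 0.11. The order of names in the titles makes FL the likely numerator, but the sources do not settle this, nor whether every array was turned the same way before deposit. "Higher" means higher in the numerator line of the ratios as deposited. Under the reading in which each ratio is one dye over the other, 5 wk replicate 1 and all other arrays with LL in the 647 channel change sign, so the size of a shift on an array is firmer than its direction. Array medians lay between -0.056 and 0.019, and the SD over the spots of an array between 0.209 and 0.435. The fit covered 15027 features, and 160 spots of 1 wk replicate 4 had no value. The number of arrays limits the precision.

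The shifts of 6 of the 7 genes, all but LECT2, lay mainly on 3 arrays. At least 2-fold higher ratios were found for 6 of 7 genes on 1 wk replicate 2, where 1.64% of all features reached that size in that direction. On 5 wk replicate 1 the count was 5 of 7, beside 1.44% of all features. On 1 wk replicate 4 all 7 lay below 0, and 2 of 7 (ALB and AHSG) were at least 2-fold lower, beside 0.95% of features. The median of the 7 stood at 1.77, 1.16 and -0.77 on these arrays in turn. On the other 21 arrays it stayed between -0.31 and 0.27 and was above 0 on 10. Of the 147 member values on those 21 arrays, 3 passed 2-fold: ALB on 1 wk replicate 3 (0.353% of features were as high there), ALB on 7 wk replicate 2 (0.326%), and LECT2 in the lower direction on 3 wk replicate 4 (1.16%). Because the genes were chosen for this pattern, nothing is read from these counts. They also rest on the exchange of row and column in the spot ID. With the names as given, 0 of 7 passed 2-fold in these directions on each of the 3 arrays. The 2 high arrays carried opposite dyes, with FL in the 647 channel at 1 wk and LL at 5 wk.

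**Figure D1:**
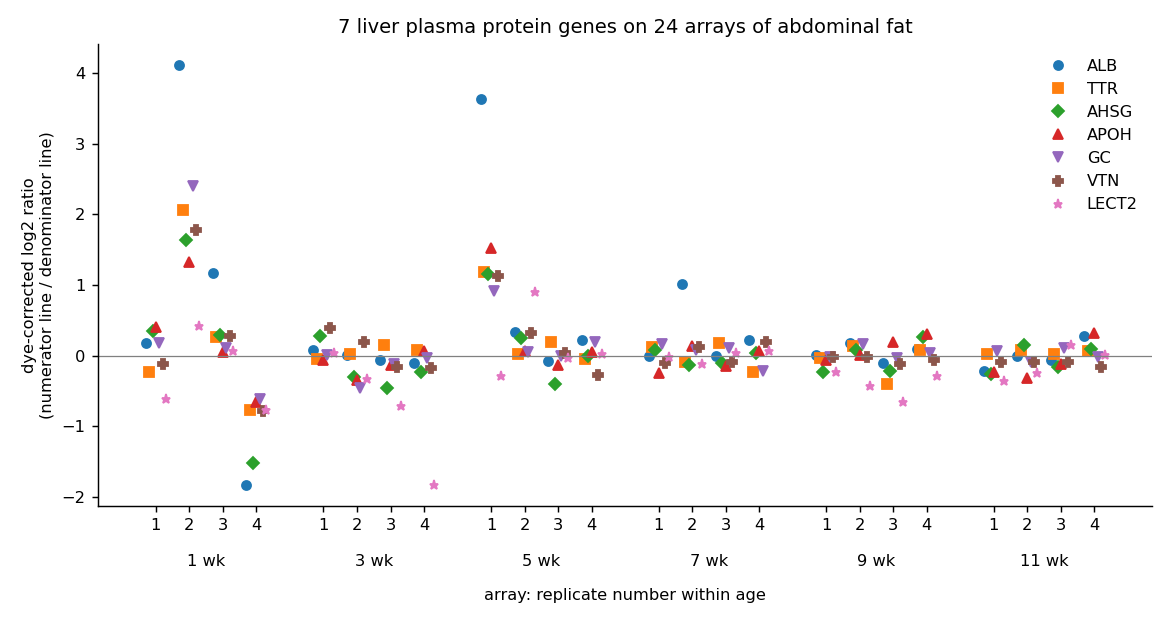
Dye-corrected log2 ratio (vertical axis) of each of the 7 genes on each of the 24 arrays, grouped by age. Points stand far from 0 on 1 wk replicates 2 and 4 and 5 wk replicate 1, while ALB reaches 4.12 on the first of these.

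ALB had the ratio largest in size of the 7 genes on each of the 3 arrays. For ALB the 4 arrays at 1 wk gave dye-corrected ratios of 0.18, 4.12, 1.17 and -1.83. Those at 5 wk gave 3.63, 0.33, -0.07 and 0.22. The single high array at 5 wk stood apart from 3 arrays near 0, and the 4 arrays at 1 wk lay on both sides of 0. A ratio of 4.12 is a 17.3-fold difference between 2 birds and 3.63 is 12.4-fold. ALB ranked 2 of 6428 named genes on 1 wk replicate 2, 1 on 5 wk replicate 1 and 4 from the bottom on 1 wk replicate 4. With the ratios turned by the dyes it ranked 2 on 1 wk replicate 2, 1 from the bottom on 5 wk replicate 1 (-3.30) and 3 from the bottom on 1 wk replicate 4. On the other 21 arrays it ran from -0.21 to 1.17 with a median of 0.01.

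TTR, which carries thyroid hormone and the retinol-binding protein complex, stood at -0.24, 2.06, 0.27 and -0.77 at 1 wk. At 5 wk it stood at 1.18, 0.02, 0.19 and -0.04. Its other 21 arrays lay between -0.40 and 0.27, so only 3 arrays left that band. GC, which binds vitamin D metabolites and actin, gave 0.18, 2.40, 0.11 and -0.61 at 1 wk and 0.92, 0.05, -0.0018 and 0.19 at 5 wk. GC stayed just under 2-fold on 5 wk replicate 1 and is the member nearest below that threshold on this array. VTN (1.13) and AHSG (1.16) lay just above it. The other 21 arrays of GC ran from -0.46 to 0.19.

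AHSG, also called fetuin-A, binds calcium phosphate in plasma. Its ratios at 1 wk were 0.34, 1.63, 0.29 and -1.52, and those at 5 wk were 1.16, 0.25, -0.40 and -0.0035. APOH, a phospholipid-binding glycoprotein, gave 0.41, 1.32, 0.05 and -0.65 at 1 wk, then 1.52, 0.06, -0.13 and 0.05 at 5 wk. VTN, an adhesion protein of plasma and matrix, gave -0.12, 1.77, 0.28 and -0.79 at 1 wk and 1.13, 0.32, 0.04 and -0.27 at 5 wk. For each of these genes replicate 2 was the highest and replicate 4 the lowest of the 1 wk arrays, and replicate 1 the highest of the 5 wk arrays. On the other 21 arrays the ranges were -0.45 to 0.34 for AHSG, -0.34 to 0.41 for APOH and -0.27 to 0.40 for VTN. At 3, 7, 9 and 11 wk, TTR, GC, AHSG, APOH and VTN passed 2-fold on no array.

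LECT2 is a liver-derived secreted protein first described as a chemotactic factor for neutrophils, and was read from 1 spot. LECT2 had its highest and lowest 1 wk ratios on the same arrays as the other 6, but departed from them on 5 wk replicate 1. It stood at -0.62, 0.41, 0.07 and -0.77 at 1 wk and at -0.29, 0.90, -0.03 and 0.02 at 5 wk. On 5 wk replicate 1 it lay below 0 where the other 6 lay at 0.92 or higher. At 3 wk it gave 0.04, -0.33, -0.71 and -1.83, and at 9 wk all 4 arrays lay below 0 (-0.23, -0.44, -0.65 and -0.29). Of its summed squared ratios over 24 arrays, 12.2% fell on the 3 arrays named above, against 84.1% to 93.7% for the other 6 genes. Across the 24 arrays, Pearson's r between pairs of the other 6 genes ran from 0.78 to 0.94, and r with LECT2 from 0.16 to 0.42. Without the 3 arrays these ranges were -0.42 to 0.46 and -0.09 to 0.49. The arrays are shared by all pairs, so these r values describe the same few birds.

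Spots of one gene differed in how far they moved. On 1 wk replicate 2 the deposited ratios of the 2 ALB spots were 4.68 and 3.45, and on 5 wk replicate 1 they were 4.71 and 2.65. The ALB value of 1 wk replicate 3 rested on 1 spot, at 2.36 beside 0.08. On 7 wk replicate 2 the pair stood at 1.52 and 0.43. For TTR the 3 spots stood at 4.20, 0.40 and 1.44 on 1 wk replicate 2. The last 2 of these carry the same clone, printed in different blocks. One AHSG spot gave 2.96 and the other -0.15 on that array, and on 1 wk replicate 4 they gave -2.35 and -1.15. The VTN spots stood at 0.41 and 3.01, and those of APOH at 1.97 and 0.87. GC and LECT2 had 1 spot each. Averaging thus drew the gene values of TTR, AHSG and VTN toward 0 on the arrays where one of their spots moved most. The brightness of each spot was not analysed here.

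**Figure D2:**
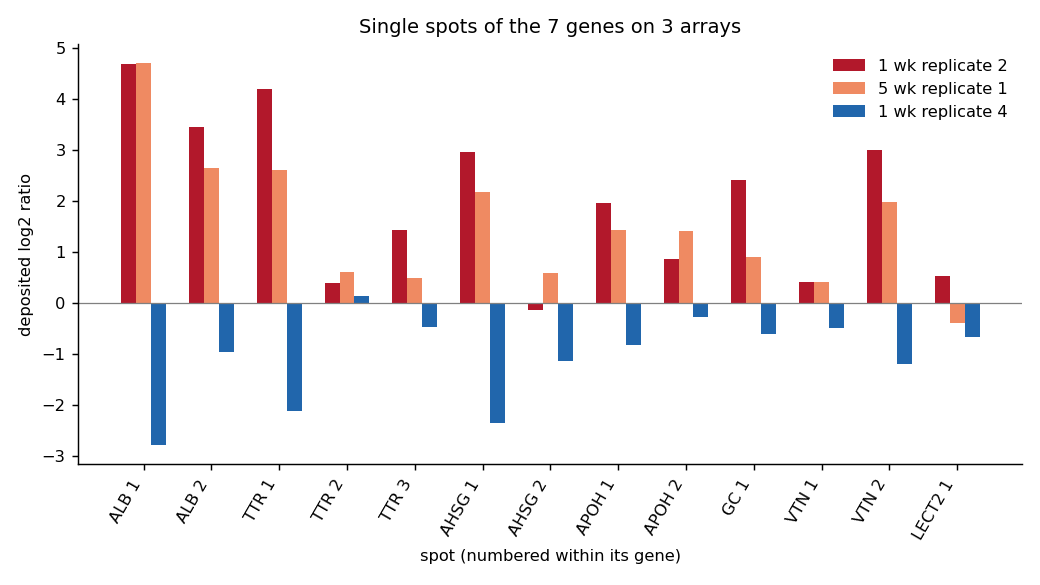
Deposited log2 ratio (bars, from 0) of each of the 13 spots on 1 wk replicate 2, 5 wk replicate 1 and 1 wk replicate 4, with spots numbered within their gene. The first ALB spot reaches 4.68 and 4.71 on the 2 high arrays, while the second AHSG spot stands at -0.15 and 0.60 there.

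The comparison of the lines over all ages asks whether these transcripts differ between FL and LL birds in general. Of 15027 features 0 (0%) passed an adjusted p of 0.05 in limma in the mean over the 6 ages, and 1067 had an unadjusted p under 0.05. With the ratios turned by the dyes, 5358 were called in that mean, and 377 (3 wk) to 2040 (7 wk) at single ages. The sources do not settle which reading gives the line difference. Values that follow use the ratios as deposited. As a description, ALB stood at 0.38 (SE 0.237, above 0 on 14 of 24 arrays), TTR at 0.12 (SE 0.109, 16 of 24) and GC at 0.13 (SE 0.109, 14 of 24). AHSG stood at 0.03 (SE 0.119, 12 of 24), APOH at 0.09 (SE 0.094, 13 of 24) and VTN at 0.09 (SE 0.1, 9 of 24). LECT2 stood at -0.22 (SE 0.0907, above 0 on 9 of 24). The median feature had an SE of 0.0443, so the SE of ALB was several times that of a usual feature.

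Without 1 wk replicates 2 and 4 and 5 wk replicate 1, a choice made after seeing the data, ALB stood at 0.21 (SE 0.0603) and LECT2 at -0.21 (SE 0.0934). The other 5 then lay between 0.0077 (AHSG) and 0.02 (GC). At 1 wk that setting keeps 2 arrays, both with LL in the 647 channel, and 1 wk replicate 3 with its high ALB spot is among them. Without 1 wk replicate 2 and 5 wk replicate 1 alone, ALB stood at 0.05, AHSG at -0.10 and TTR at -0.02. Leaving out each of the 24 arrays in turn moved ALB between 0.19 (without 1 wk replicate 2) and 0.54 (without 1 wk replicate 4). LECT2 kept its sign in all 24 omissions, from -0.26 (without 5 wk replicate 2) to -0.15 (without 3 wk replicate 4). With the ratios turned by the dyes, however, LECT2 stood at 0.11 and ALB at -0.05. These values equal their dye terms, because the dyes were balanced within age.

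**Figure D3:**
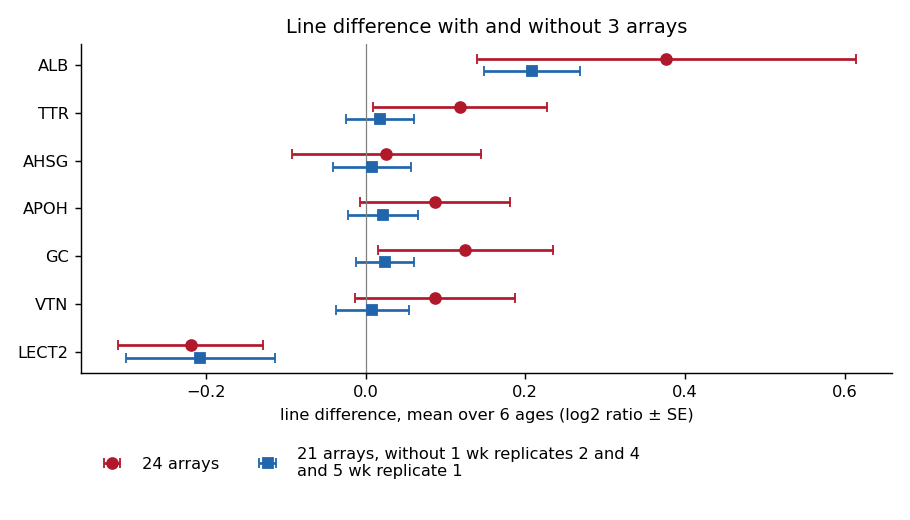
Line difference in the mean over 6 ages (horizontal axis, log2 ratio with bars of 1 SE) for each of the 7 genes, from 24 arrays and from the 21 arrays left without 1 wk replicates 2 and 4 and 5 wk replicate 1. The value of ALB drops from 0.38 to 0.21, while that of LECT2 moves from -0.22 to -0.21.

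At single ages the spread between arrays exceeded the mean ratio for all 7 genes at 1 wk and at 5 wk. ALB stood at 0.91 ± 2.48 (SD, n = 4) at 1 wk and 1.03 ± 1.74 (SD, n = 4) at 5 wk. TTR stood at 0.33 ± 1.23 and 0.34 ± 0.571, GC at 0.52 ± 1.30 and 0.29 ± 0.425, and APOH at 0.28 ± 0.822 and 0.38 ± 0.768 at those ages. LECT2 stood at -0.23 ± 0.563 and 0.15 ± 0.520. Of all features 0 (0%) were called at 1 wk, 0 (0%) at 5 wk and 0 (0%) for a difference between ages, with 401, 437 and 336 at an unadjusted p under 0.05. At 3 wk, 9 wk and 11 wk 0 (0%) were called as well, with 1033, 1329 and 200 at an unadjusted p under 0.05, and at 7 wk 1 feature (0.00665%), NECAB2, was called at -0.43 (SE 0.0614, adjusted p 0.00918 in limma). NECAB2 is none of the 7 genes and was not called without 7 wk replicate 2 or without 7 wk replicate 3. ALB moved little at 3 wk (-0.02 ± 0.0817), 9 wk (0.04 ± 0.122) and 11 wk (-0.0017 ± 0.205; SD, n = 4 each). The 4 arrays of VTN at 9 wk and at 11 wk all lay below 0, with means of -0.05 ± 0.0468 and -0.11 ± 0.0335. These are averages of 2 spots that did not share a sign throughout. The deposited ratios of the spots were -0.31 and 0.39 on 9 wk replicate 1, and 0.06 and -0.10 on 11 wk replicate 3.

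Other genes that hepatocytes express were examined on the same arrays from 2 lists, which were written with earlier results of these data known. Of 71 listed liver-secreted proteins beside the 7, 44 were measured. On 1 wk replicate 2, 36 of these 44 lay above 0, with a median of 0.50 beside 0.004 for all named genes. On that array 12 of 44 were at least 2-fold higher, beside 1.64% of all features. FGB, the beta chain of fibrinogen, led at 4.28, and APOB, the core protein of lipoproteins, followed at 2.45. AMBP, the precursor of alpha-1-microglobulin, stood at 1.89 and PLG, plasminogen, at 1.68. On 5 wk replicate 1, 35 of 44 lay above 0, with a median of 0.29 beside 0.033 for all named genes. FGB (1.94) and APOB (1.13) were at least 2-fold higher there, beside 1.44% of all features. On 1 wk replicate 4, 10 of 44 lay above 0 and the median was -0.16. Only 1 of 44, FGB at -1.06, was at least 2-fold lower there, beside 0.95% of all features. On the other 21 arrays the list median stayed between -0.11 and 0.09.

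Enzymes, transporters and transcription factors listed as hepatocyte markers formed the other list. Whether fat cells express some of these, PCK1 among them, was not examined. Of 66 listed, 37 were measured, and their median was 0.17 on 1 wk replicate 2, 0.12 on 5 wk replicate 1 and -0.09 on 1 wk replicate 4. At least 2-fold higher were 6 of 37 on 1 wk replicate 2, 3 of 37 on 5 wk replicate 1 and 2 of 37 on 1 wk replicate 4. Over all features the shares were 1.64%, 1.44% and 1.2% in turn. On 1 wk replicate 4, 0 of 37 were 2-fold lower, beside 0.95% of all features. The 3 were LBFABP, CYP3A5 (1.07) and PCK1 (1.06), and the 2 were ASL (1.82) and CYP2D6, with CYP3A5, PCK1 and ASL named after their values were seen. The difference between the lists was not tested. The liver basic fatty acid-binding protein gene LBFABP stood at 3.50, 1.44 and -0.33 on these arrays. HPD, an enzyme of tyrosine breakdown, stood at 1.56, 0.70 and -0.28, and the liver fatty acid-binding protein gene FABP1 at 1.47, 0.28 and -0.18. CYP2D6 went another way, at 1.35, -0.07 and 1.14. HNF4A, a hepatocyte transcription factor, stood at 0.17, 0.12 and -0.03. Across the 81 genes of both lists, r between 1 wk replicate 2 and 5 wk replicate 1 was 0.68 (Spearman 0.53), against 0.25 (Spearman -0.12) over all 15027 features. With the ratios turned by the dyes, r over the 81 genes was -0.56 (Spearman -0.42). These arrays hold different birds. The genes share the arrays' processing and are not independent replicates.

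**Figure D4:**
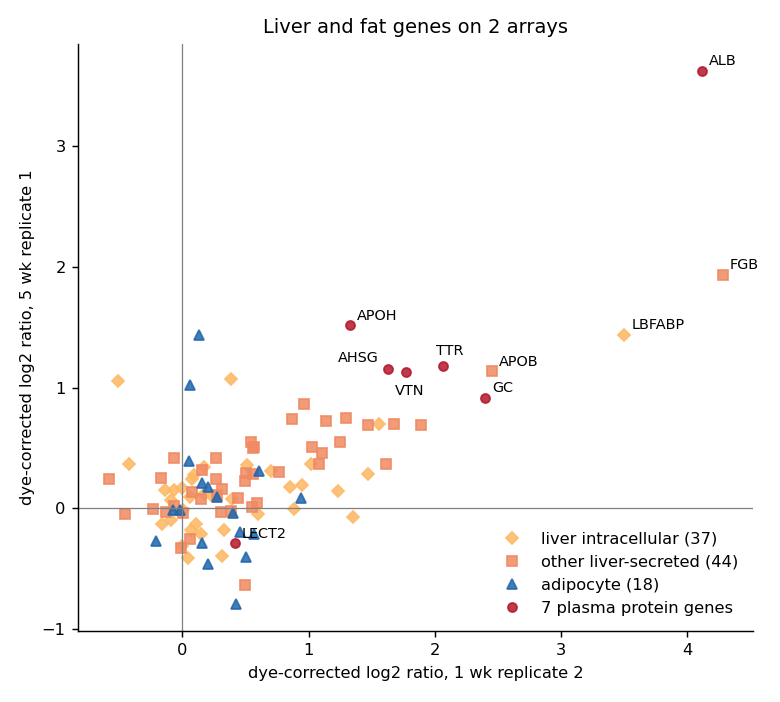
Dye-corrected log2 ratio on 5 wk replicate 1 (vertical) against 1 wk replicate 2 (horizontal), with 1 point per gene for the 7 plasma protein genes, 44 other liver-secreted, 37 liver intracellular and 18 adipocyte genes. ALB and FGB lie far to the upper right, whereas LECT2 lies at 0.41 and -0.29. Adipocyte genes and liver-list genes such as CYP2C18 (0.31 and -0.39) both lie near it.

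In the mean over ages 0 of the 44 and 0 of the 37 genes were called in either direction. At an unadjusted p under 0.05, each list had 1 gene higher and 1 lower, beside 1067 of all 15027 features in either direction. The smallest p in the secreted list belonged to CP, ceruloplasmin, at 0.06 (SE 0.0277, adjusted p 0.616), RBP4, the plasma retinol carrier that TTR binds, at -0.21 (SE 0.0983, adjusted p 0.684) and TF, the transferrin gene, at 0.12 (SE 0.0583, adjusted p 0.707). In the other list they belonged to CYP2C18 (-0.21, SE 0.088, adjusted p 0.613), HNF4A (0.08, SE 0.0371, adjusted p 0.65) and ADH6 (0.11, SE 0.061, adjusted p 0.779), in limma's fit over all features. The secreted list had 34 of 44 genes above 0 with a median of 0.04, and 29 of 44 with a median of 0.02 without the 3 arrays. Over all features 7788 of 15027 lay above 0.

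Markers of other cell types were examined on the same 3 arrays. Adipocyte genes, of which 18 of 24 were measured, had a median of 0.20 on 1 wk replicate 2, -0.02 on 5 wk replicate 1 and 0.70 on 1 wk replicate 4. On the last array, where the plasma protein genes were lowest, 6 of 18 adipocyte genes were at least 2-fold higher, beside 1.2% of all features in that direction, among them G0S2, a lipase inhibitor, at 1.75, the retinol-binding gene RBP7 at 1.29 and PPARG, the adipocyte transcription factor, at 1.25. FABP4, the adipocyte fatty acid-binding protein gene, stood at 2.92 there and at 1.44 on 5 wk replicate 1, chosen for mention after its values were seen. Of the 18 adipocyte genes, 14 lay above 0 on 1 wk replicate 4. ADIPOQ (-0.41), PLIN2 (-0.15), MGLL (-0.06) and RARRES2 (-0.05) lay below 0 there. Skeletal muscle markers (19 of 32 measured) had medians of -0.09, -0.23 and 0.03 on the 3 arrays in the same order. Leukocyte markers (17 of 26) stood at 0.05, 0.20 and -0.12, the one of these other cell lists whose medians had the signs of the plasma protein genes on all 3 arrays. Erythrocyte markers (6 of 20) stood at -0.13, 0.20 and 0.07, exocrine pancreas and gut markers (7 of 25) at -0.03, -0.11 and -0.07, and kidney markers (3 of 17) at 0.10, 0.05 and 0.02. None of these last 5 lists had a gene at least 2-fold higher on any of the 3 arrays, and 1 skeletal muscle gene, ACTN2, was 2-fold lower on 5 wk replicate 1 (-1.01). The part of any cell type in the shifts of the plasma protein genes was not tested.

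**Figure D5:**
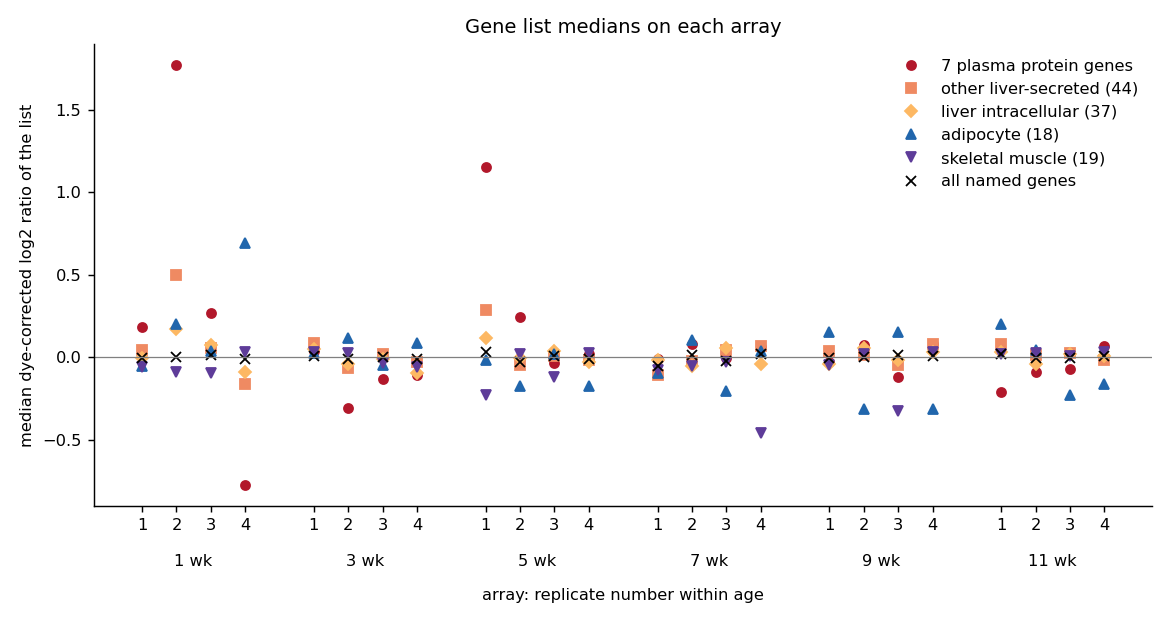
Median dye-corrected log2 ratio (vertical axis) of 5 gene lists and of all named genes on each of the 24 arrays, grouped by age. The 7 plasma protein genes and the other liver-secreted genes are highest on 1 wk replicate 2 (1.77 and 0.50), and the adipocyte genes on 1 wk replicate 4 (0.70).

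The genes most like the median of the 7 were sought over the 24 arrays among the 6421 other named genes, by Pearson's r and as a description. FGB was first at r = 0.95, followed by PSPH, an enzyme of serine synthesis (0.93), C3, the central complement protein (0.93), TM4SF1a (0.92), SLCO1A2 (0.91) and LBFABP (0.90). LOC771012 (0.90), EFR3A (0.89), GATM, an enzyme of creatine synthesis (0.89), and ATP6V1A (0.88) completed the first 10, of which 3 stood on a liver list. PSPH stood at 2.67, 2.36 and -0.68 on 1 wk replicate 2, 5 wk replicate 1 and 1 wk replicate 4, and GATM at 3.07, 1.01 and -1.17. The lowest r belonged to FIBIN (-0.72), POSTN, a matricellular protein (-0.69), ITGAV (-0.69), SENP5 (-0.67) and MSX1 (-0.65). The order of the first 10 depended on few arrays. Without the 3 arrays r fell to 0.62 for FGB and 0.24 for PSPH, and 0 of the first 10 genes were shared. By Spearman's rho, 1 of the first 10 was shared, FGB, which was again first (0.77). Of the 5 lowest genes, FIBIN stayed at -0.72 without the 3 arrays. The others then ran from -0.35 (POSTN) to 0.30 (SENP5). With the ratios turned by the dyes FGB was again first (r = 0.96), and 8 of the first 10 and 4 of the 5 lowest genes were shared. Turning reverses a gene and the median on the same arrays, so this overlap is no separate check of the order.

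Features at least 2-fold higher on both high arrays numbered 70 of 15027. That is 28.3% of the 247 on 1 wk replicate 2 and 32.3% of the 217 on 5 wk replicate 1. Of these 70, 15 were named. The named ones included 5 of the 7 genes (ALB, TTR, AHSG, APOH and VTN), which were chosen with this pattern known. Besides them there were 3 of the 81 genes of the liver lists (FGB, APOB and LBFABP). The 7 others were GATM, HSD11B1B, ICOSLG, MBL2, PSPH, SPG7 and TMEM248. MBL2 encodes a mannose-binding lectin of plasma. On 1 wk replicate 4, 34 of the 70 were at least 2-fold lower, beside 0.95% of all features. With the ratios turned by the dyes, 3 features were at least 2-fold higher on both arrays. In that reading 59 were 2-fold higher on 1 wk replicate 2 and 2-fold lower on 5 wk replicate 1, and 54 of these were among the 70.

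Genes beside the 7 on their chromosomes were taken, for their names and order alone, from RefSeq's gene table for the assembly bGalGal1.mat.broiler.GRCg7b. Next to AHSG lies FETUB, its fetuin relative and also a plasma protein, at 1.02, 0.51 and -0.44 on 1 wk replicate 2, 5 wk replicate 1 and 1 wk replicate 4. On the other side of AHSG, SENP5 stood at -0.49, -0.07 and 0.27. Beside ALB, ANKRD17 stood at -0.25, -0.26 and 0.13, and beside GC, SLC4A4 stood at 0.01, 0.55 and 0.24. The neighbours of LECT2, TGFBI and FBXL21, stood at -0.22 and -0.29 on 1 wk replicate 2. SLC46A1, 2 places from VTN, stood at 0.31, 0.25 and -0.32. FETUB and SLC46A1 were the measured neighbours, up to 2 places away, with the signs of the plasma protein genes on all 3 arrays.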

How the data were processed

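Per the labels, total RNA of abdominal fat was labelled indirectly and hybridised in pairs to 24 spotted arrays. The deposited values are log2 ratios per spot. Tools named in the submitters' processing notes are R 2.11.1 and limma 3.4.5. How background, normalization, spot filters and sign were handled is not given in the sources used here. The log base is not stated either, and 2 was assumed because limma works in that base. Depth has no meaning for these ratios.

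Spots were named from the platform annotation after row and column of the spot ID were exchanged within each block. Control spots (123, of 2 clones) were left out, and spots of one gene were averaged. Features needed 3 values per age. The fit, in limma 3.58.1 under R 4.3.3, had 6 age terms and a dye term, with Benjamini-Hochberg adjustment over all 15027 features. The fit was tested on simulated data. A 2-fold threshold described single arrays. The named genes are the 7, from each marker list the 4 largest in size on 1 wk replicate 2 and the 3 smallest p, and the 10 most and 5 least alike. The members and lists were chosen with earlier results of these data known. Alternatives covered direction, dye term, naming, averaging, scaling, weights, moderation, omissions and the replicate block.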

Additional observations from a re-analysis of the deposited data

Results flagged for a closer look

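Within each age, the highest and lowest of 4 arrays were compared with the nearest of the others for the 7 genes and their median, in 48 groups. In 3 of these the gap exceeded Dixon's critical value for 4 values, set so that 1 in 20 groups would pass by chance. At that level a few marks among 48 groups could arise by chance alone. The genes were chosen for shifts of single arrays, so this mark is a description of their values and no test. ALB on 5 wk replicate 1, at 3.63, lay apart by 0.892 of the range. APOH on the same array, at 1.52, lay apart by 0.882. VTN on 11 wk replicate 4, at -0.16, lay apart by 0.884 within a narrow range (SD 0.0335) of values averaged over 2 spots. At 1 wk no value was marked, since replicates 2 and 4 lay on opposite sides of the others.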

How the results depend on the processing

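With ratios turned by the dyes, 5358 of 15027 features were called in the mean over ages. By age, 507 were called at 1 wk, 377 at 3 wk, 1281 at 5 wk, 2040 at 7 wk, 1386 at 9 wk and 631 at 11 wk, and 702 between ages. Dyes were balanced within age, so the turned mean over ages equals the main fit's dye term for features with a value on every array. If the deposited ratios have the same numerator line on every array, the 5358 calls are therefore dye effects and not line differences. If each deposited ratio is one dye over the other, the 5358 calls are line differences, and the 0 calls of the main fit concern the dyes. In that reading the median of the 7 genes at 5 wk was -0.34, their median on 5 wk replicate 1 was -1.11, 0 were 2-fold higher there, and 3 features were 2-fold higher on both high arrays. The direction of these results is therefore open to the reading of the dyes. Spots kept single gave 1 call in the mean over ages, and array weights gave 2, with 182 at 3 wk. Leaving out 1 array gave 0 to 100 calls in the mean over ages (100 without 5 wk replicate 2, 4 without 1 wk replicate 2 and 1 each without 1 wk replicate 4 and 9 wk replicate 2), 0 to 1 at 1 wk, 0 to 18 at 3 wk (18 without 3 wk replicate 1), 0 to 5 at 5 wk (5 without 5 wk replicate 2), 0 to 2 at 7 wk (2 without 7 wk replicate 1), and 0 at 9 wk, at 11 wk and between ages. The median of the 7 in the mean over ages ran from 0.01 to 0.15 over these omissions, at 1 wk from -0.24 (without replicate 2) to 0.72 (without replicate 4), and at 5 wk from 0.04 (without replicate 1) to 0.47 (without replicate 4). With the names as given, 0 of 7 passed 2-fold on each of the 3 arrays, and the medians on the high arrays were -0.066 and 0.16. Scaled arrays left 2 genes past 2-fold on 5 wk replicate 1. A 4-fold threshold left 3, 1 and 0 on 1 wk replicate 2, 5 wk replicate 1 and 1 wk replicate 4. On the last array, 7 passed 1.5-fold, and 6 passed 2-fold against the mean of the other 3 arrays. That mean includes 1 wk replicate 2, where 6 of 7 were 2-fold higher. Shares over all features are not given for these other settings, so nothing is read from the counts. The r of FGB was 0.77 by Spearman, 0.76 without the 2 arrays and 0.62 without the 3. The replicate block, which takes up the dye term, left the median of the 7 at 0.09 and 0 calls in the mean over ages. After age means and dye terms were removed, same-numbered arrays of different ages correlated at a mean of -0.06. Arrays of other numbers with the same dye orientation gave -0.09. No label ties a number to a shared litter, batch or day. Apart from the turned mean over ages, which equals the dye term of the main fit, the cause of these changes was not tested.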

Other observations

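A group of mostly unnamed spots held many high ratios on the 2 arrays where the plasma protein genes were high. It was noticed in the values and is described with no test. At 8 neighbouring positions that recur in each of the 48 blocks (middle number of the deposited spot ID 13 to 20, last number 14), 83 of 383 spots (21.7%) were at least 2-fold higher on 1 wk replicate 2, against 1.19% of the other 18694 spots. On 5 wk replicate 1 the shares were 16.2% and 1.30%. Of the 82 single spots that passed 2-fold on both arrays, 47 lay in this group, and 45 of these 47 had no gene name. None of the 13 spots of the 7 genes lay there (0 of 383). The median ratio over the group reached 0.36 on the first of these arrays and 0.12 on the other. On 1 wk replicate 4, where the plasma protein genes were lowest, the group's median was 0.02. There 18 of its 383 spots (4.70%) were at least 2-fold higher, beside 1.26% of the other spots. A further 30 were at least 2-fold lower, beside 0.95% of all features in that direction. That last share is over features with spots of one gene averaged, and the share of the other single spots was not counted. On the 21 arrays outside the 3 the group's median stayed between -0.10 and 0.12. An excess of high spots in the group was not confined to the 2 arrays. Of the group, 4.44% were at least 2-fold higher on 7 wk replicate 2, against 0.23% of the other spots. On 7 wk replicate 1 the shares were 2.09% and 0.05%, and the median of the 7 genes lay near 0 on both arrays. Some arrays went the other way, with 0% and 0.48% on 3 wk replicate 1. Its 122 named spots included 12 genes of the liver lists: A2M, AGXT, CYP2C18, CYP3A5, EHHADH, FABP1, FGA, GYS2, HABP2, SERPINF1, SPIA1 and SPP2. Of all 6428 named genes, 81 stood on these lists. The 122 are spots and the 6428 are genes, so the 2 counts are not compared and nothing is read from them. Of the 83 group spots at least 2-fold higher on 1 wk replicate 2, 77 had no gene name.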
